A study of Mus musculus with 2 samples.

Results

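The insulin-like growth factor (IGF) genes examined here were 9 of the 27998 genes listed for single cells of the murine retinal pigment epithelium (RPE), chosen by their symbols. They comprised the 2 ligands Igf1 and Igf2, the 2 receptors Igf1r and Igf2r, and the 5 binding proteins Igfbp2, Igfbp3, Igfbp4, Igfbp5 and Igfbp7. The cells came from 2 male C57BL/6J mice, R1 and R2, labelled 4 to 5 weeks old and taken at postnatal day 36. No genotype or treatment was compared, and the 2 eyes of a mouse were pooled before live cells were sorted by calcein and DAPI staining. Each mouse was 1 droplet library, and values are counts of unique molecular identifiers (UMIs), which mark single RNA molecules.

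IGF ligands signal through the type 1 receptor, a tyrosine kinase, whereas the type 2 receptor takes up IGF2 for lysosomal degradation. The binding proteins hold most extracellular IGF and can limit or prolong its action, and Igfbp7 is a more distant relative with low affinity for IGFs. The RPE is a pigmented monolayer that serves the photoreceptors, and it secretes transthyretin, the product of Ttr, in large amounts.

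After filtering, 2671 cells of R1 and 2847 cells of R2 were kept, with median depths of 8264.0 and 7665.0 UMIs. Cells were split by the share of their UMIs that came from Ttr. Ttr-high cells, at 5% or more, numbered 2612 in R1 and 2828 in R2, and Ttr-low cells, below 3%, numbered 59 and 19, with 0 cells between the limits in either mouse. The RPE label was met by Ttr-high cells, all of which held at least 3 of the 8 genes listed as RPE markers. Most Ttr-low cells also held at least 3 of them, 48 of 59 in R1 and 13 of 19 in R2, but at a lower level. RNA released by RPE cells can reach other droplets and was left in, and its part in these shares was not tested. In Ttr-high cells the 8 genes summed to a mean of 374 UMIs per 10000 in R1 and 436 in R2. Of these, Slc16a3 was at 0 and Best1 gave only 7 and 11 UMIs. In Ttr-low cells the same genes summed to 34.7 and 24.8. Best1 and Slc16a3 were at 0, which does not set these cells apart for either gene. Most Ttr-low cells held at least 3 of the 8 genes Pax6, Dkk3, Aldoc, Trpm1, Map1b, Zic4, Meg3 and Penk, namely 54 of 59 cells in R1 and 16 of 19 in R2, and are called Pax6/Dkk3-marked below. This list was taken from earlier results of these data. Its high level in Ttr-low cells is therefore a label and no independent evidence of what these cells are. At least 3 fibroblast markers were held by 3 and 2 Ttr-low cells, and 1 of these in R1, which also held 3 genes of the Pax6/Dkk3 list, is counted as fibroblast-marked. At least 3 genes of the Pax6/Dkk3 list were also held by 110 Ttr-high cells of R1 and 31 of R2, where the list summed to a mean of 1.98 and 1.33 UMIs per 10000 against 86.8 and 76.2 in Ttr-low cells. At least 3 microglia or macrophage markers were held by 2 and 1. Ttr-low cells were shallower, with medians of 3200.0 and 3836.0 UMIs against 8431.5 and 7687.0, and had median mitochondrial shares of 2.57% and 3.35% against 1.30% and 1.26%. The libraries had 12 cell barcodes in common.

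Igfbp2 and Igfbp5, the pair in which one member fell and the other rose between the 2 kinds of cell, are neighbours on mouse chromosome 1 of build GRCm38. Igfbp2 lies on the plus strand at chr1:72824503-72852474 and Igfbp5 on the minus strand at chr1:72857932-72874884, so that their 3′ ends face each other across 5457 bases with no annotated gene between. Their promoters therefore lie at the outer ends of the pair, and the 250 bases before each RefSeq start site (GRCm38.p6) are shown because the genes sit side by side and yet moved in opposite directions. The stretch for Igfbp2 is chr1:72824230-72824479 on the plus strand, and that for Igfbp5 is chr1:72874866-72875115 on the minus strand, both written 5′ to 3′. Capitals mark matches, on either strand, to the GC box GGGCGG, the TATA motif TATAAA, the E-box CACGTG or the box named CCAAT, and no marked matches overlap.
Igfbp2: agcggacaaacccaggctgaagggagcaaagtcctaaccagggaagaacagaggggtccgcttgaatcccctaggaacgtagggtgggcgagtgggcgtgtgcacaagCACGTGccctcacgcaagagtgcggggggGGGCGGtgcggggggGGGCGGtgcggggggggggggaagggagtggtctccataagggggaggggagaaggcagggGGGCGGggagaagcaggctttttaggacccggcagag
Igfbp5: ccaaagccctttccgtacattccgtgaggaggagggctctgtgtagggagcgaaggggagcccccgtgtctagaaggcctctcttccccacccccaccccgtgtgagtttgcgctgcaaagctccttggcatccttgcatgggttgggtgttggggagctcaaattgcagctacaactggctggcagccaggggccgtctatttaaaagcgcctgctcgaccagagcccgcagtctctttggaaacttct
The Igfbp2 stretch held 3 GC boxes and 1 E-box, with 67.2% G or C. The Igfbp5 stretch held no exact match to any of the 4 motifs, with 58.8% G or C, and variants of the motifs were not counted. Of 32851 mouse promoter stretches of this length, 32.7% held the GC box, 12.4% the TATA motif, 6.02% the E-box and 33.8% the CCAAT box, so that these matches are a description of the letters alone. RefSeq listed 13 promoter entries for the 9 genes, of which Igfbp2 had a second one further downstream that held none of the motifs.

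The other genes lie apart from this pair. Igf1 is at chr10:87858265-87937042 on the plus strand, Igf2 at chr7:142650766-142666816 on the minus strand, Igf1r at chr7:67952827-68233668 on the plus strand and Igf2r at chr17:12682406-12769664 on the minus strand. Igfbp3 is at chr11:7206086-7213923 on the minus strand, Igfbp4 at chr11:99041244-99054392 on the plus strand and Igfbp7 at chr5:77349240-77408041 on the minus strand. Igfbp7 overlaps Polr2b on the other strand, and Igf1, Igf2 and Igf2r each overlap an antisense gene. Igf2 also overlaps Gm49394 and Mir483 on its own strand. Whether the counting used strand was not given in the sources used here, so reads of overlapping partners could be mixed.

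In mature RPE cells the binding proteins made up most IGF-system transcripts, and Igfbp7 led them in both mice. Igfbp7, also made by blood vessels and deposited in matrix, reached 9.15 UMIs per 10000 in Ttr-high cells of R1 (21723 UMIs, exact 95% Poisson interval 9.03 to 9.27) and 11.2 in R2 (30130 UMIs, 11.0 to 11.3). It was found in 96.2% of Ttr-high cells in R1 and 96.3% in R2. Among the summed UMIs of the 5 binding proteins, Igfbp7 took 64.8% in R1 and 76.0% in R2. Intervals cover counting error only, and levels of different genes are compared as UMIs per 10000, a count at the 3′ end of each molecule that does not scale with gene length.

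Igfbp2, a binding protein abundant in fetal tissues and brain, came next. Its level in Ttr-high cells was 3.01 UMIs per 10000 in R1 (2.94 to 3.08) and 2.53 in R2 (2.47 to 2.59), and 62.3% and 61.7% of cells held at least 1 UMI. Igfbp5, the most conserved binding protein and one that also binds matrix, reached 1.96 in R1 (1.90 to 2.01) and 0.984 in R2 (0.947 to 1.02), in 58.4% and 36.9% of cells. In these summed levels the order Igfbp7, Igfbp2, Igfbp5 held in both mice, but not among the shallower cells of R1, as given below by depth. The summed level of Igfbp5 differed about as much between the mice as it did from that of Igfbp2 in R1. As a mean over cells Igfbp5 was at 2.26 in R1 and 1.05 in R2, and Igfbp2 at 2.75 in R1. By that measure Igfbp5 differed more between the mice than from Igfbp2 in R1.

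The receptors were low but measurable. Igf1r, the signalling receptor, was at 1.07 UMIs per 10000 in R1 (1.03 to 1.12) and 0.932 in R2 (0.896 to 0.969), in 46.6% and 37.1% of Ttr-high cells, so that Igfbp5 lay above Igf1r in R1 and close to it in R2. Igf2r, the uptake receptor, was at 0.133 and 0.138, in 8.81% and 7.99% of cells. Of the ligands, Igf2 was at 0.166 and 0.171, in 9.23% and 9.41% of cells, slightly above Igf2r in both mice as summed UMIs. As a mean over cells Igf2 and Igf2r were at 0.146 and 0.147 in R1, and at 0.165 and 0.147 in R2.

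Igf1, Igfbp3 and Igfbp4 were almost missing from Ttr-high cells. Igf1 gave 2 UMIs in 2 of 2612 cells in R1 and 7 UMIs in 6 of 2828 cells in R2. Of these cells, 1 in each mouse held at least 3 microglia or macrophage markers, and 1 in R2 held at least 3 fibroblast markers. Igfbp4, which binds IGFs until a protease cleaves it, gave 1 UMI in R1 and 19 UMIs in 10 cells of R2. Of those 10 cells, 6 held at least 1 fibroblast marker and 0 held at least 3, and the cell of R1 held 0. The share of all Ttr-high cells with at least 1 such marker is not given here, so these cells are not tied to fibroblasts. Igfbp3, the main carrier of IGFs in serum, gave 19 UMIs in 3 cells of R1, of which 17 came from 1 cell with 6 endothelium markers, and 0 UMIs in R2. Since 3 UMIs correspond to 0.00126 UMIs per 10000 in R1 and 0.00111 in R2, a level below these values could not be told from 0.

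**Figure D1:**
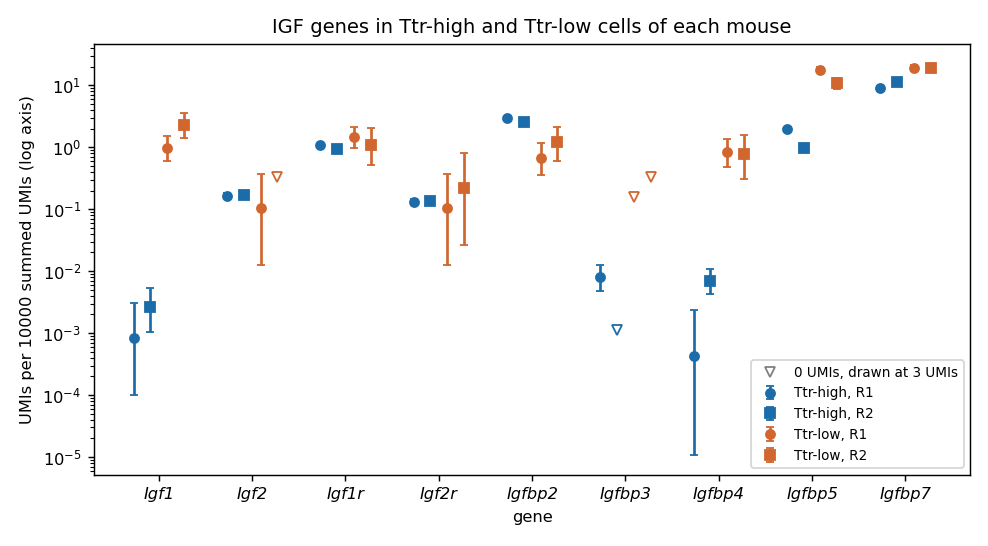
Summed level of each IGF gene as UMIs per 10000 on a log axis, for Ttr-high cells (blue) and Ttr-low cells (orange) of mice R1 (circles) and R2 (squares). Bars are exact 95% Poisson intervals and open triangles stand for 0 UMIs, drawn at the level of 3 UMIs. Igfbp7 is the highest of the 9 genes in Ttr-high cells, and Igf1, Igfbp4, Igfbp5 and, on this plain scale, Igfbp7 are higher in the Ttr-low cells of both mice, whereas Igfbp2 is lower.

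How a gene's level varied with the depth of a cell was examined in 4 equal depth bins of the Ttr-high cells ranked by total UMIs. The amount of RNA in a cell was not measured apart from this depth. Igfbp2 was higher in each deeper bin of R1, at 2.14, 2.41, 2.94 and 3.52 UMIs per 10000, and had the values 2.39, 2.17, 2.38 and 2.75 in R2. Igfbp5 had the opposite order in R1, at 3.02, 2.77, 1.95 and 1.36, but not in R2, at 0.958, 1.29, 1.10 and 0.837. The deepest bin therefore held the highest Igfbp2 and the lowest Igfbp5 in both mice, with the shallower bins of R2 following no single order. Igfbp5 lay above Igfbp2 in the shallowest and next to shallowest bins of R1, and below it in all other bins. Igfbp7 stayed between 8.71 and 9.69 in R1 and between 10.8 and 11.3 in R2. Igf2 was highest in the deepest bin of each mouse, at 0.221 in R1 and 0.190 in R2. Igf1r was highest in the shallowest bin of R1, at 1.49, and in the next to shallowest bin of R2, at 1.05.

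**Figure D2:**
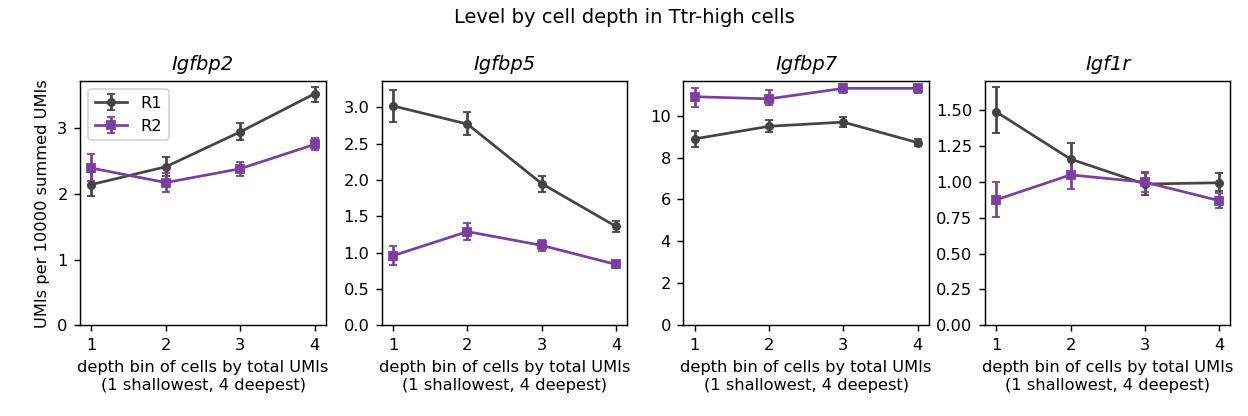
Level of Igfbp2, Igfbp5, Igfbp7 and Igf1r as UMIs per 10000 in 4 depth bins of the Ttr-high cells ranked by total UMIs, for R1 (653 cells a bin) and R2 (707 cells a bin), with exact 95% Poisson intervals. Igfbp2 goes from 2.14 to 3.52 and Igfbp5 from 3.02 to 1.36 across the bins of R1, and both lines are flatter in R2.

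Whether Igfbp2 and Igfbp5 exclude each other in single RPE cells was asked next. A weak shortage of cells with both was seen in R1 and hardly any in R2. To give all cells the same sampling depth, detection was computed as if each cell had been reduced to 2000 UMIs. On that footing 34.1% of Ttr-high cells in R1 would show Igfbp2, 28.8% Igfbp5 and 7.97% both, against 9.81% if the genes were independent, a ratio of 0.812. In R2 the shares were 32.4%, 15.3% and 4.77%, against 4.96%, a ratio of 0.962. The odds ratio of the 2 genes, which is less compressed than the share ratio where most cells are positive, was 0.66 in R1 and 0.93 in R2. Within the 4 depth bins without reduction, from shallowest to deepest, it was 0.83, 0.51, 0.63 and 0.63 in R1 and 1.18, 0.80, 0.78 and 0.92 in R2. All bins of R1 were thus below 1, and 3 of the 4 bins of R2. Without reduction, 35.9% of droplets in R1 and 24.4% in R2 held at least 1 UMI of each gene. Free RNA can add UMIs of either gene to a droplet, and its part in these shares was not tested.

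The distance of R1 from independence grew with the strength of expression, and R2 did not follow it. Among cells of R1 with at least 5 UMIs per 10000, 528 for Igfbp2 and 349 for Igfbp5, 36 passed for both where independence gave 70.5. In R2 the numbers were 462 and 142, with 21 passing for both where independence gave 23.2. At 10 UMIs per 10000, 0 cells of R1 passed for both where independence gave 4.85, and 3 cells of R2 where it gave 1.07. With at least 2 UMIs of each after reduction to 2000, the ratio was 0.580 in R1 and 1.047 in R2. The cuts at 5 and 10 UMIs per 10000 used cells of unequal depth, and the part of depth in these values was not tested.

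The level of Igfbp5, though not its share of cells in R2, was also lower in cells with more Igfbp2. In R1 it was 2.92 UMIs per 10000 in the 985 cells without an Igfbp2 UMI, 1.85 in the 1070 cells with 1 to 4, and 1.22 in the 557 cells with 5 or more. In R2 the same groups had 1.14, 1.02 and 0.782 over 1084, 1259 and 485 cells. The share of cells with an Igfbp5 UMI was 59.8%, 58.1% and 56.6% in R1, but it had the reverse order in R2, at 32.6%, 36.4% and 47.8%. These groups differed in depth, with medians of 6068.0, 8803.5 and 12242.0 UMIs in R1 and 4863.5, 7963.0 and 15641.0 in R2, and the part of depth in the order was not tested. With depth taken out, the correlation of Igfbp2 with Igfbp5 over Ttr-high cells was -0.17 in R1 (2612 cells) and -0.03 in R2 (2828 cells). These cells share 1 library per mouse, and values this small in sparse counts describe no clear relation.

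**Figure D3:**
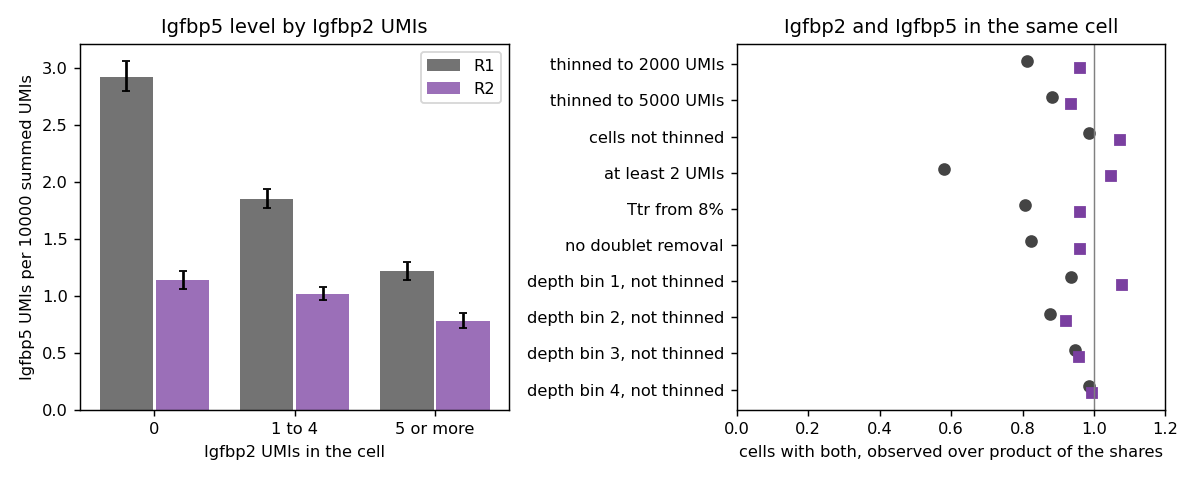
Left, Igfbp5 level as UMIs per 10000 in Ttr-high cells grouped by their Igfbp2 UMIs, as bars from 0 with exact 95% Poisson intervals, for R1 (grey) and R2 (purple). Right, share of cells with both genes over the product of the separate shares, under each way of counting, where 1 means independence. R1 lies between 0.580 and 0.986, and R2 between 0.923 and 1.079.

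Other pairs of IGF genes were related less than Igfbp2 and Igfbp5 were in R1. Igf2 with Igfbp2 had a partial correlation of 0.10 in R1 and 0.07 in R2, and Igfbp2 with Igfbp7 had 0.05 and 0.04. Igfbp5 with Igfbp7 had 0.03 in R1 and -0.04 in R2. Cell-to-cell variance over mean, not matched for level, was above the median gene for each of the 4 members with enough counts, Igfbp2, Igfbp5, Igfbp7 and Igf1r. After reduction to 2000 UMIs the variance over the mean was 1.79 for Igfbp5 and 1.63 for Igfbp2 in R1, where the median of 2429 genes was 1.22 and 55 and 86 genes were higher. In R2 it was 1.55 for Igfbp5 and 1.54 for Igfbp2, where the median of 2312 genes was 1.33 and 110 and 115 genes were higher. Igfbp7 had 1.40 in R1, with 263 genes higher, and 1.58 in R2, with 75 higher. The mean after reduction in R2 was 2.24 UMIs for Igfbp7, 0.503 for Igfbp2 and 0.202 for Igfbp5. With levels this unlike, the values do not rank the genes by spread. Igf1r had 1.45 and 1.47.

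The genes whose level in a Ttr-high cell went most with Igfbp2, out of 2274 genes at 0.5 UMIs per 10000 or more in both mice, were Enpp2, Bsg, Sostdc1, Ctsd and Gpx4. The partial correlation with Enpp2, the enzyme autotaxin, was 0.20 in R1 and 0.18 in R2. That with Bsg, which escorts lactate transporters to the membrane, was 0.22 and 0.16, and that with Sostdc1, a secreted BMP and Wnt antagonist, 0.19 and 0.15. The most negative were Dct, a melanin synthesis enzyme, at -0.27 and -0.11, and then Cox8b, Nap1l5, Ptgds and Wfikkn2. For Igfbp5 the most positive were the mitochondrially encoded mt-Nd4, mt-Cytb and mt-Nd1, at 0.21 to 0.22 in R1 and 0.12 to 0.13 in R2, followed by the pigment cell genes Mlana, at 0.16 and 0.11, and Gpnmb, at 0.25 and 0.10. The most negative for Igfbp5 were Rgr, a retinal opsin of the RPE, at -0.22 and -0.21, and Rdh5, a visual cycle dehydrogenase, at -0.18 and -0.13, with Pon1, Apoe and Bsg after them. Bsg was thus on the positive side for Igfbp2 and on the negative side for Igfbp5, at -0.11 and -0.09. These are correlations over the cells of 1 library in each mouse, and all of them were weak.

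In the few Ttr-low cells, Igf1, Igfbp4 and Igfbp5 were higher and Igfbp2 was lower than in Ttr-high cells of the same mouse. UMIs were summed over the cells of each class in each mouse, and the 4 sums were tested with edgeR's quasi-likelihood test with the mouse as a block. Of 11488 genes tested, 1195 passed an adjusted p of 0.05, which is 10.4%, with 484 (4.21%) higher and 711 (6.19%) lower in Ttr-low cells. Of the 9 IGF genes, 8 had enough counts to be tested and Igfbp3 did not. Of these 8, 3 rose, 1 fell and 4 did not pass. Their median log2 fold change was -0.09, beside -0.34 over all genes. Without TMM scaling, which is meant to remove a shift shared by most genes, 1097 genes were higher and 385 lower and the median over all genes was 0.38. The median thus had opposite signs with and without TMM, so folds are best read against the median of the same fit.

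Igfbp5, unlike Igf1 and Igfbp4, was also well detected in Ttr-high cells. It was at 17.9 UMIs per 10000 in Ttr-low cells of R1 (345 UMIs, 16.1 to 19.9) against 1.96 in Ttr-high cells, and at 10.9 in R2 (99 UMIs, 8.83 to 13.2) against 0.984. The Ttr-low values lay above the Ttr-high values in both mice, by 9.17-fold in R1 and 11.0-fold in R2 as plain ratios. It was detected in 81.4% of Ttr-low cells in R1 and 68.4% in R2 despite their lower depth. With TMM scaling the log2 fold change was 2.59 (SE 0.352, adjusted p = 1.33e-11 by edgeR). Pax6/Dkk3-marked cells held 16.2 and 8.74 UMIs per 10000, and the fibroblast-marked cells 55.0 and 46.5. Without the cells marked as another type, the log2 fold change of Igfbp5 was 2.39 (adjusted p = 3.13e-11 by edgeR).

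Igfbp2 went the other way. Ttr-low cells held 0.676 UMIs per 10000 in R1 (13 UMIs, 0.360 to 1.16) against 3.01 in Ttr-high cells, and 1.21 in R2 (11 UMIs, 0.603 to 2.16) against 2.53. After reduction to 2000 UMIs a cell, 6.38% and 13.5% of Ttr-low cells would show it, against 34.1% and 32.4% of Ttr-high cells. The log2 fold change was -2.38 (SE 0.433, adjusted p = 1.29e-06 by edgeR). All Igfbp2 UMIs of Ttr-low cells came from Pax6/Dkk3-marked cells, in 5 cells of R1 and 4 of R2, and 8 of the 13 UMIs in R1 came from 1 cell. RNA released by RPE cells can reach other droplets, and the level in Ttr-low cells as a percentage of that in Ttr-high cells was 22.5% for Igfbp2 in R1, against 5.87% for Rpe65, 7.88% for Rgr and 12.7% for Rlbp1. In R2 it was 47.7% for Igfbp2, against 1.33%, 2.83% and 9.86%. Without the Ttr-low cell with most Igfbp2 UMIs in each mouse, Igfbp2 was at 8.84% in R1 and 36.2% in R2. The part of released RNA in these Igfbp2 UMIs was not tested. Both Igfbp2 and Igfbp5 were found in 2 Ttr-low cells of R1, where independence gave 4.07, and in 3 of R2, where it gave 2.74.

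Igf1, the main growth-promoting ligand after birth, was found mostly in Ttr-low cells. In R1 it gave 19 UMIs in 11 of 59 Ttr-low cells, a level of 0.988 UMIs per 10000 against 8.42e-04 in Ttr-high cells, and in R2 21 UMIs in 10 of 19 cells, a level of 2.30 against 0.00260. The ratio was 1173 in R1, with a counting interval of 283 to 10383, and 888 in R2, with 364 to 2473. The intervals are wide because Ttr-high cells gave only 2 and 7 UMIs. The log2 fold change was 9.07 (SE 0.897, adjusted p = 1.02e-21 by edgeR). Pax6/Dkk3-marked cells gave 10 of the UMIs in 9 cells of R1 and 16 in 8 cells of R2, while 1 fibroblast-marked cell of R1 gave 8 and the microglia-marked cell of R2 gave 4. Without the cells marked as another type the log2 fold change was 8.66 (adjusted p = 2.71e-08 by edgeR).

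Among Ttr-low cells, most Igfbp4 UMIs came from the few fibroblast-marked cells. It gave 16 UMIs in 6 Ttr-low cells of R1, a level of 0.832 UMIs per 10000, and 7 UMIs in 3 cells of R2, a level of 0.768, against 1 and 19 UMIs over all Ttr-high cells. The log2 fold change was 7.43 (SE 1.35, adjusted p = 1.25e-06 by edgeR). The 3 fibroblast-marked cells of R1 held 13 of the 16 UMIs and the 2 of R2 held 6 of the 7, at 11.9 and 10.3 UMIs per 10000, against 0.173 and 0.121 in Pax6/Dkk3-marked cells. Without the cells marked as another type the log2 fold change was 5.25 and no longer passed (adjusted p = 0.118 by edgeR). That fit had only 3 Igfbp4 UMIs in Ttr-low cells of R1 and 1 in R2, so the lost call cannot tell a lower level from too few counts.

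Igfbp7 did not pass the test, and whether it was called turned on the scaling. Ttr-low cells held 18.9 UMIs per 10000 in R1 (17.0 to 20.9) against 9.15 in Ttr-high cells, and 19.3 in R2 (16.6 to 22.4) against 11.2. These are ratios of 2.06 and 1.73, with Ttr-low above Ttr-high in both mice. In R2, 1 cell gave 54 of the 176 UMIs. Without the Ttr-low cell with most Igfbp7 UMIs in each mouse, the level was 184% of that in Ttr-high cells in R1 and 141% in R2. With TMM scaling the log2 fold change was 0.18 (SE 0.351, adjusted p = 0.854 by edgeR), and without it 0.93 (adjusted p = 0.000227 by edgeR), beside a median over all genes of -0.34 and 0.38. Pax6/Dkk3-marked cells held 19.6 and 19.2 UMIs per 10000, and 92.5% and 87.5% of them had a UMI.

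Summed, the 5 binding proteins differed between the classes in amount and make-up, as plain values without TMM scaling and with no test. The difference in amount depends on the scaling, as given above for Igfbp7, whereas the shares within a class do not. The 5 binding proteins came to 14.1 UMIs per 10000 in Ttr-high cells of R1 and 14.7 in R2, and to 38.3 and 32.2 in Ttr-low cells. The part of Igfbp2 was 21.3% and 17.2% in Ttr-high cells and 1.76% and 3.75% in Ttr-low cells. That of Igfbp5 was 13.8% and 6.70% in Ttr-high cells and 46.8% and 33.8% in Ttr-low cells.

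**Figure D4:**
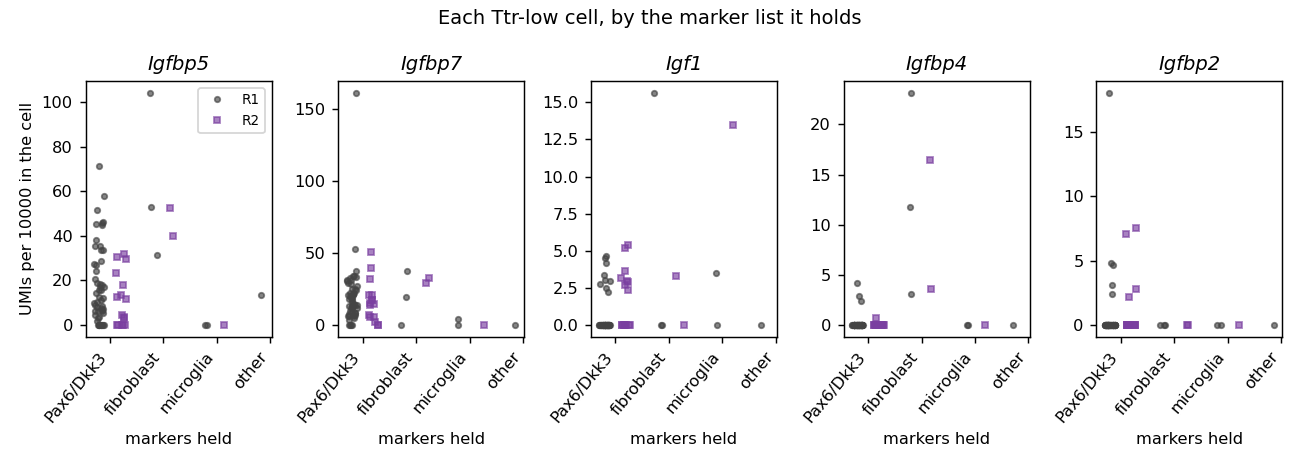
Level of Igfbp5, Igfbp7, Igf1, Igfbp4 and Igfbp2 in each Ttr-low cell as UMIs per 10000 in that cell, by the marker list of which the cell held at least 3 genes, for R1 (circles, 59 cells) and R2 (squares, 19 cells). The highest Igfbp4 values are in fibroblast-marked cells, Igfbp2 above 0 is seen in Pax6/Dkk3-marked cells, and Igfbp5 is spread over both kinds.

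The remaining members gave no call. Igf1r was at 1.46 UMIs per 10000 in Ttr-low cells of R1 (28 UMIs) and 1.10 in R2 (10 UMIs), with a log2 fold change of -0.37 (SE 0.441, adjusted p = 0.754 by edgeR) that was 0.37 without TMM scaling. Igf2r rested on 2 UMIs in each mouse, with a log2 fold change of -0.61 (SE 1.07) that was 0.13 without TMM scaling. Igf2 rested on 2 UMIs of 1 fibroblast-marked cell in R1 and 0 UMIs in R2, with a log2 fold change of -2.00 (SE 1.22, adjusted p = 0.409 by edgeR). In R2, 3 UMIs of the Ttr-low cells would be a level of 0.329 UMIs per 10000, above the 0.171 of Ttr-high cells, so that a loss of Igf2 was not detectable at this depth.

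Among 40 other genes of the IGF and insulin pathway, 28 were tested, of which 2 rose, 4 fell and 22 did not pass, beside the 10.4% called over all genes. Their median log2 fold change was -0.87, beside -0.34 over all genes. Without TMM scaling it was -0.15, beside 0.38 over all genes. Of the 12 not tested, 6 had 0 UMIs in both classes. Igfbp6, a binding protein that prefers IGF2, rose from 0.189 to 2.55 UMIs per 10000 in R1 and from 0.139 to 2.96 in R2, a log2 fold change of 3.33 (SE 0.46, adjusted p = 3.14e-11 by edgeR). Fibroblast-marked cells held it at 18.3 and 25.8, and Pax6/Dkk3-marked cells at 1.67 and 1.46. Eif4ebp1, a translation repressor that mTOR phosphorylates, rose with a log2 fold change of 3.35 (SE 1.02, adjusted p = 0.0132 by edgeR) on 15 and 3 UMIs, and had 2.61 (SE 1.26, adjusted p = 0.244 by edgeR) without the cells marked as another type, so that its call was lost.

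Ins2, 1 of the 2 mouse insulin genes, was measured in Ttr-high cells at 1.47 UMIs per 10000 in R1 and 1.49 in R2, in 48.0% and 46.7% of cells, a higher level than that of either IGF ligand. It gave 3 UMIs in Ttr-low cells of R1 and 0 in R2, where it was at least 4.52-fold lower with 3 UMIs as the floor, and its log2 fold change was -4.55 (SE 0.685, adjusted p = 1.83e-09 by edgeR). Mtor, the growth kinase, fell with a log2 fold change of -3.81 (SE 0.914, adjusted p = 0.000588 by edgeR), and Irs2, an adaptor of both the insulin and the IGF receptor, with -2.92 (SE 1.04, adjusted p = 0.0476 by edgeR). Mtor and Irs2 each had 2 UMIs in Ttr-low cells of R1 and 0 in R2, and Irs2 passed under 8 of 11 alternative settings. Ctsd, a lysosomal protease able to cleave binding proteins, fell by 2.06 on the log2 scale (SE 0.39, adjusted p = 4.16e-06 by edgeR).

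**Figure D5:**
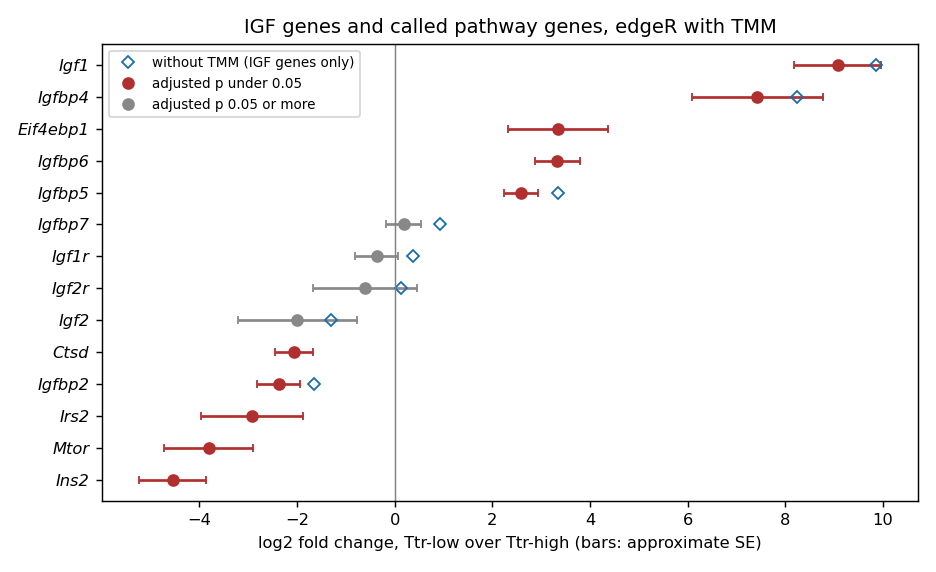
Log2 fold change of Ttr-low over Ttr-high cells from edgeR with TMM scaling for the 8 IGF genes tested and the 6 pathway genes that passed, with approximate standard errors as bars and adjusted p under 0.05 in red. Open diamonds give the IGF genes without TMM scaling, where Igfbp7 is at 0.93 instead of 0.18 and Igf1r at 0.37 instead of -0.37.

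The p-values rest on 2 mice with 1 Ttr-low sum each, of 192400 and 91115 UMIs, and leave 1 residual degree of freedom per gene, so that the spread is largely shared across genes. The Ttr-low cells were 2.21% and 0.667% of the cells kept.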

How the data were processed

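Raw UMI counts per gene and cell, as deposited, were used for both mice. The authors aligned 10x 3′ reads to GRCm38 and counted UMIs with Cell Ranger 1.2.0, after bcl2fastq 2.20.0.422 per the labels. The kit version differs between the labels and the study's methods and was not settled. The deposited matrices held 2844 cells (26034378 UMIs) for R1 and 2994 (29732969) for R2, where the number stated in the methods differs.

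Cells with under 500 genes (4 and 0) or over 5% mitochondrial UMIs (58 and 28) were left out. A doublet score built from artificial doublets (25% of profiles, 10 components, nearest 1%) then removed its top 4% in each mouse, 111 and 119 cells, of which 0 were Ttr-low. The authors' ambient RNA correction was not repeated, and 10% subtraction was an alternative. Free RNA was left in otherwise.

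Class sums were tested in R 4.3.3 with edgeR 4.0.16 (glmQLFit and glmQLFTest, filterByExpr, TMM, mouse as block, Benjamini-Hochberg over all genes tested), with approximate SE as the absolute log2 fold change over the root of F. DESeq2 1.42.0 was an alternative. The replicate numbers are the mice, so both classes of a mouse share its library. The edgeR step was run on simulated counts, with both classes drawn from the Ttr-high profile apart from some genes changed by a known fold. That simulation does not cover classes as unlike in composition as the real ones, so it does not bear on the scaling. Descriptive values used Python 3.11.15 and scipy 1.17.1. Correlations were of ln(1 + UMIs per 10000), partial on log10 total UMIs. Intervals are exact at 95%, and a count of 0 was given the floor of 3.

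All 9 members are described, pathway genes that passed are named, and so are the 5 most positive and 5 most negative correlates of Igfbp2 and Igfbp5, ranked by the mouse nearer 0. Members, lists and limits were chosen with earlier results of these data known. Gene positions are from GENCODE M21, and all 9 members matched the RefSeq promoter table.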

Additional observations from a re-analysis of the deposited data

How the results depend on the processing

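Over 11 alternative fits, the calls of Igf1, Igfbp2 and Igfbp5 held in all 11, with log2 fold changes of 8.66 to 10.10, -2.91 to -1.65 and 2.39 to 3.34 and adjusted p no higher than 2.71e-08, 0.000199 and 1.7e-09. Igfbp4 passed in 10 and Igfbp7 in 1, without TMM. Without TMM the log2 fold changes of Igf1r and Igf2r turned to 0.37 and 0.13, uncalled either way. The median over all genes went from -0.34 to 0.38 between the same fits, so these signs depend on the scaling. DESeq2 called 938 genes, 505 higher and 433 lower. With no replicate block the calls rose to 2114 genes and, in the pathway list, to 10, a fit with more residual degrees of freedom, while 4 IGF genes were called with or without the block. With one mouse left out no count of calls could be had. The log2 ratio in the remaining mouse, on the TMM scale, was 9.59 (without replicate 2) and 8.91 (without replicate 1) for Igf1, -2.76 and -1.96 for Igfbp2, 10.35 and 5.88 for Igfbp4, 2.60 and 2.58 for Igfbp5, and 0.44 and -0.10 for the uncalled Igfbp7.

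The ratio of observed to independent co-detection of Igfbp2 and Igfbp5 moved in R1 from 0.812 to 0.986 with cells not thinned, to 0.580 with at least 2 UMIs, and to 0.935, 0.948 and 0.985 in depth bins 1, 3 and 4. In R2 it moved from 0.962 to 1.073 with cells not thinned and to 1.079 in depth bin 1. The share ratio is compressed toward 1 where most cells are positive, and the odds ratio in bins 1, 3 and 4 of R1 was 0.83, 0.63 and 0.63 beside 0.66 over all cells. The causes were not tested. The correlation of the pair stayed negative in both mice with Spearman ranks and without the depth term. Depth limits Igf2, Igf2r and Igfbp3 in Ttr-low cells, which gave 0 to 2 UMIs in each mouse.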
